A study of Mus musculus with 8 samples.

Results

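The 9 genes described here encode the mitochondrial pyruvate dehydrogenase complex and the enzymes that switch it off and on in mouse liver. They are the kinase genes Pdk1, Pdk2, Pdk3 and Pdk4, the phosphatase gene Pdp2, and the subunit genes Pdha1, Pdhb, Dlat and Dld. They were chosen by gene symbol from the 23699 loci listed for each library, and all 9 symbols were found. Polyadenylated liver RNA was sequenced from male C57/BL6 mice aged 8 weeks. The 4 groups were liver-specific Med23 knockout mice (LMKO) that were re-fed, control mice that were re-fed, LMKO mice that were fasted, and control mice that were fasted. Fasted mice went 24 h without food, and re-fed mice had the same 24 h fast and then 24 h of food. Each group had 2 libraries from 2 mice, per the design text, and the spread within a group is one between animals. Med23 is part of Mediator, through which transcription factors reach RNA polymerase II. The labels name neither the Cre driver of the knockout nor the genotype of the controls beyond the word control.

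Pyruvate dehydrogenase turns pyruvate from glycolysis into acetyl-CoA, and in doing so commits carbohydrate carbon to oxidation or fat synthesis. The E1 component, made of the Pdha1 and Pdhb chains, decarboxylates pyruvate, the E2 component Dlat carries the acetyl group on lipoic acid, and the E3 component Dld re-oxidises the lipoic acid. The kinases phosphorylate the Pdha1 chain and so shut the complex, as is known of fasting, and the phosphatases reverse this. Pdk4 is a well-known fasting gene of liver and muscle, induced through PPAR alpha, FOXO1 and glucocorticoids and repressed by insulin.

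Values are the FPKM (fragments scaled to transcript length and to the mapped fragments of the library) that the authors deposited, which allow levels to be compared between genes per unit of transcript length. Changes were tested with limma on log2(FPKM + 1) over the 10865 loci that reached an FPKM of 1 in 2 or more libraries, with Benjamini-Hochberg adjustment over all of them, and a gene is said to have risen or fallen where its adjusted p was under 0.05. Pdk3 did not reach that level and was not tested. The fold changes understate the change of low genes such as Pdk4. In whole liver, fewer cells of a type and less RNA per cell cannot be told apart.

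The libraries were alike in breadth, with 10096 to 10403 loci at an FPKM of at least 1, and their correlations within a group were 0.963 to 0.976. How many fragments each library held is unknown. Summed FPKM was 511926 to 597650 in re-fed and 453652 to 468218 in fasted libraries, and the ribosomal RNA locus Rn45s had 185 to 1386 in 7 libraries and 3448 in re-fed control 2. Hepatocyte markers were abundant in all 8 libraries, with a summed FPKM of 14537 to 20154 over 8 genes, although the albumin gene Alb stood at 0 throughout, which can be a failed estimate. Med23 had an FPKM of 1.61 and 1.74 in re-fed LMKO, 2.86 and 2.33 in re-fed control, 2.35 and 2.18 in fasted LMKO, and 2.86 and 2.93 in fasted control livers. The LMKO libraries were below the control libraries in both feeding states, but the gene did not pass the test (adjusted p = 0.315 re-fed and 0.438 fasted, limma), and the FPKM does not show which part of the transcript was read. Re-fed and fasted libraries also differed in how their values moved with transcript length. The correlation of a locus's deviation from its mean with log2 length was -0.382, -0.355, -0.0234 and -0.340 in the re-fed libraries (LMKO 1 and 2, then control 1 and 2) and 0.240 to 0.309 in the fasted ones. The deposited file names also fall into 2 runs of numbers that match the feeding states, so a batch and feeding cannot be told apart. The median of all tested loci was 0.13 on the log2 scale for re-feeding in control livers, and 68.5% of the loci called there were higher. With median-ratio scaling that median was 0.01 and the share was 53.3%.

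The promoters of 4 genes are shown because these genes carry the results below: Pdk2, the most abundant kinase gene, and Pdk4, the one that varied most, and Pdhb and Dlat, which rose with re-feeding. Each is the 250 bases before the RefSeq start on GRCm38.p6, read 5′ to 3′ on the minus strand, where all 4 genes lie. Capitals mark matches on either strand to CCAAT, which on the other strand reads ATTGG, to the GC box GGGCGG or to the E-box CACGTG.
Pdk2, chr11:95041372-95041621: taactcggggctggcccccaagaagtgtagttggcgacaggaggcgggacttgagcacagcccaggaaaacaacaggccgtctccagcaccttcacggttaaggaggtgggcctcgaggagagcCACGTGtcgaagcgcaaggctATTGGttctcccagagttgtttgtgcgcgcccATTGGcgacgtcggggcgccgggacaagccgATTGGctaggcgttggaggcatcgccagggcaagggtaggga
Pdk4, chr6:5496279-5496528: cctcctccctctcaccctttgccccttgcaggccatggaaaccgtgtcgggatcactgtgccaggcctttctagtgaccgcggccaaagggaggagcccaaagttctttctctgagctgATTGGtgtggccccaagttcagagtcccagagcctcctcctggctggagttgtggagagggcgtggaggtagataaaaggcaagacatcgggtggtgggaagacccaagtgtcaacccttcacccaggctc
Pdhb, chr14:8172993-8173242: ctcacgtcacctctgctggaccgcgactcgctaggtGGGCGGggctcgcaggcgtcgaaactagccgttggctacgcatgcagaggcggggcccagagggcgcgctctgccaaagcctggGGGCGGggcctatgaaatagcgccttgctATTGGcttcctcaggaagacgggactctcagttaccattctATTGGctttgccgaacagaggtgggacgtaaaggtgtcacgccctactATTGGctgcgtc
Dlat, chr9:50659781-50660030: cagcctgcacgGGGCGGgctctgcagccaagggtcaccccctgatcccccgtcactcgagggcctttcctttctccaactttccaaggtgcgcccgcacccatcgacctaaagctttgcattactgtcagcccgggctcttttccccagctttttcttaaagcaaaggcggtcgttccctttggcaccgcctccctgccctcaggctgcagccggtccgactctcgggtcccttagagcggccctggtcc

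The Pdk2 window held 3 CCAAT matches and 1 E-box, and the Pdk4 window held 1 CCAAT match. The Pdhb window held 3 CCAAT matches and 2 GC boxes, and the Dlat window held 1 GC box and no CCAAT match. Among all 32851 windows of that length in the RefSeq table, 33.8% held CCAAT, 32.7% the GC box and 6.02% the E-box. None of the 4 windows held TATAAA, the letters TGTTTAC that FOXO factors are known to read, or the nuclear receptor half-site AGGTCA, which occur in 12.4%, 3.17% and 14% of all windows. These are matches of letters, and no binding was measured.

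Levels over the 8 libraries ran in the order Pdhb (mean FPKM 84.2), Dld (69.7), Pdha1 (49.3), Pdk2 (44.9), Pdk1 (13.9), Dlat (10.2), Pdp2 (9.03), Pdk4 (6.95) and Pdk3 (0.133). The ranges of most neighbours overlapped, as with Pdhb at 62.2 to 110.5 and Dld at 59.4 to 79.8. The steps that did not overlap were Dld over Pdha1, by the narrow margin of 59.4 against 59.1, Pdk2 over Pdk1 (lowest 30.9 against highest 19.7), and Pdk4 over Pdk3 (lowest 0.988 against highest 0.254). Dlat, whose protein forms the core of the complex, had the lowest FPKM of the 4 subunit genes in every library.

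**Figure D1:**
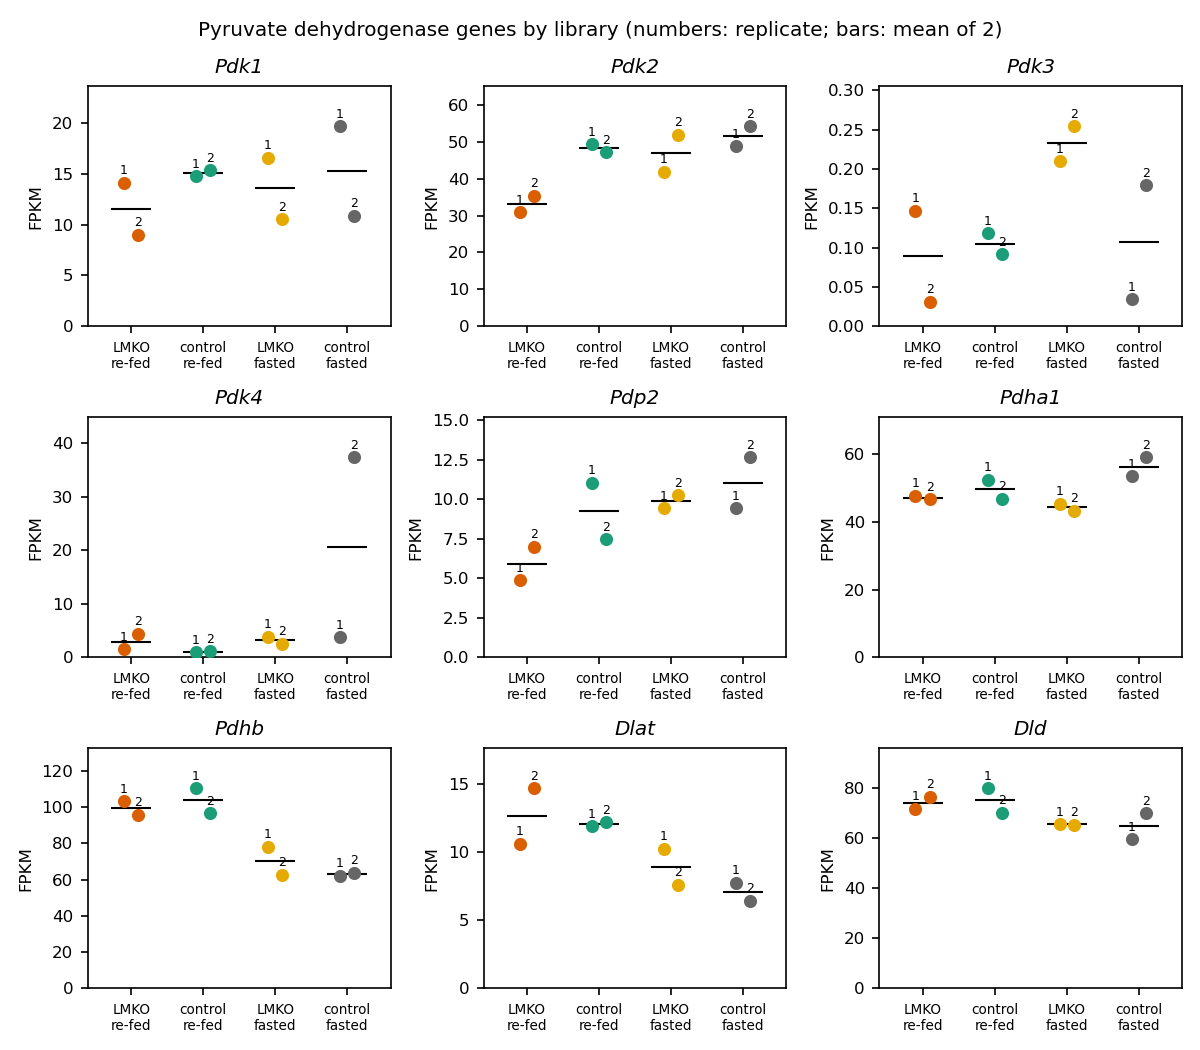
FPKM of the 9 genes (y axis, linear from 0, a scale of its own in each panel) in the 4 groups of 2 libraries (x axis), with points numbered by replicate and a bar at the mean of the 2. Pdhb and Dlat sit higher in the re-fed groups, Pdk2 is lowest in the re-fed LMKO livers, and Pdk4 stands at 37.4 in 1 fasted control library against at most 4.42 in the other 7.

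Pdk4 (chr6:5433351-5446278, mm9) encodes the kinase best known for rising in fasting. Its FPKM was 1.48 and 4.42 in re-fed LMKO, 0.988 and 1.14 in re-fed control, 3.87 and 2.53 in fasted LMKO, and 3.81 and 37.4 in fasted control livers. One fasted control animal stood 9.80-fold over its group mate, and that group mate lay within the range of the fasted LMKO libraries. Among control mice, both re-fed libraries were below both fasted ones, with a log2 fold change of -2.72 (SE 0.89) that missed the threshold (adjusted p = 0.0547, limma). Without the high fasted control library the log2 fold change was -1.22 (adjusted p = 0.121, limma), and without the other fasted control library it was -4.22 and passed (adjusted p = 0.00475, limma). Each of these fits, like the others below that leave out 1 library, has a group of 1 library, which is assumed to vary like the other groups. Among LMKO mice the re-fed and fasted libraries overlapped, and the log2 fold change was -0.18 (SE 0.89, adjusted p = 0.888, limma). The difference between these responses was 2.54 (95% interval -0.44 to 5.53, adjusted p = 0.578, limma), so a response to re-feeding that differs between genotypes was not shown for Pdk4. Without the high fasted control library this difference was 1.04 (adjusted p = 0.748, limma), and without the other one it was 4.04 (adjusted p = 0.121, limma).

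Fasted LMKO livers averaged an FPKM of 3.20 ± 0.951 for Pdk4, against 20.6 ± 23.7 in fasted control livers (SD, n = 2 each). The libraries overlapped and the log2 fold change was -1.71 (SE 0.89, adjusted p = 0.491, limma). Without the high library it was -0.22 (adjusted p = 0.954, limma), and without its group mate it was -3.21 (adjusted p = 0.0644, limma). After re-feeding, both LMKO libraries were above both control libraries, at 1.48 and 4.42 against 0.988 and 1.14, but the difference did not pass the test (log2 fold change 0.83, SE 0.89, adjusted p = 0.735, limma).

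The high fasted control library was also high for the PPAR alpha target genes, a list of 16 genes mostly of fatty acid metabolism. It held the highest value of all 8 libraries for 13 of these 16 genes, or 81.25%, against 11.5% of all tested loci. All 16 had log2 fold changes below 0 with re-feeding in both genotypes. The tested loci include many that were not lower after re-feeding, so 11.5% is not a matched share. Relative to its group mate this library was higher for 15 of the 16, against 44.5% of all tested loci. The median ratio was 1.46, against 0.972 over all tested loci. Plin2, which coats lipid droplets, had an FPKM of 692 there, against 279 in the other fasted control, 287 and 268 in the fasted LMKO and 114 to 208 in the re-fed libraries. Igfbp1, a FOXO1 target that binds insulin-like growth factors, had 71.5 and 22.4 in fasted LMKO and 216 and 624 in fasted control livers. The list of insulin-repressed FOXO1 target genes as a whole did not share the pattern: 2 of its 7 genes were highest in that library. Of the 8 tested genes described here, 4 were highest there, or 50%. They were Pdk4, Pdk2, Pdp2 and Pdha1.

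Genes most like Pdk4 over the 8 libraries on log2(FPKM + 1), among 10769 loci ranked, were Col4a1, a basement membrane collagen (Pearson r = 0.962), the TGF beta receptor gene Tgfbr2 (r = 0.956) and 1110034G24Rik (r = 0.954). All 3 were highest in the same fasted control library, with FPKM of 5.86, 6.33 and 12.7 there and at most 3.89, 3.13 and 4.43 in the other 7, so these correlations rest on that library. The summed FPKM of 6 adipocyte markers was 132 in that library and 16.3 to 67.3 in the other 7, and Pnpla2, a lipase that hepatocytes also express, made up 131.5 of it. The defining fat genes were at or near 0: Adipoq had 0.0939 there and at most 0.137 anywhere, Plin1, Cfd, Retn and Lep were listed at 0 there, and Lep was listed at 0 in all 8 libraries. Skeletal muscle markers summed to 0.762 there and to 40.9 in re-fed control 2, where Pdk4 was 1.14. The part of such cells in the Pdk4 values was not tested.

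**Figure D2:**
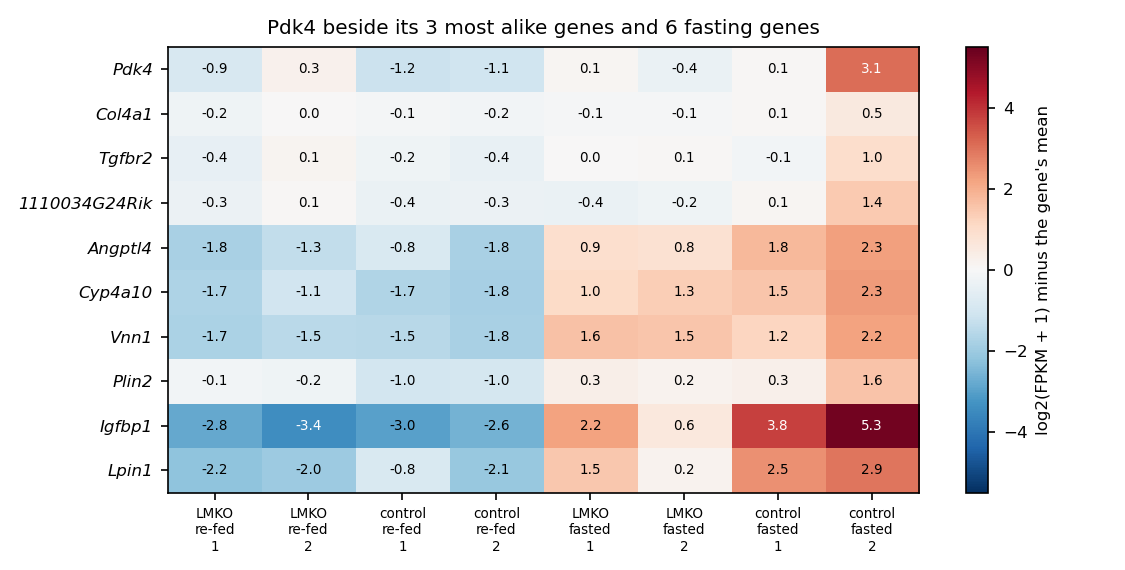
Log2(FPKM + 1) minus each gene's mean over the 8 libraries (colour and printed values) for Pdk4, the 3 genes most like it and 6 fasting genes (y axis), by library (x axis). Pdk4 and its 3 most alike genes stand out in fasted control 2 alone, while the 6 fasting genes are above their mean in all 4 fasted libraries and are highest in that library. These 6 are a selection. Of the lists they come from, 13 of 16 PPAR alpha targets, 5 of 15 regulators of the kinase genes and 2 of 7 FOXO1 targets were highest there.

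Pdk2 (chr11:94887572-94902685, mm9) encodes the kinase that is most widespread in the body and made up most of the kinase transcripts here. Its FPKM was 30.9 and 35.4 in re-fed LMKO, 49.3 and 47.2 in re-fed control, 41.8 and 51.9 in fasted LMKO, and 48.8 and 54.2 in fasted control livers. The re-fed LMKO libraries were below the other 6, as they were for Med23, and the share of all loci with this order was not counted. In LMKO livers Pdk2 fell with re-feeding, by 0.48 on the log2 scale (SE 0.15, adjusted p = 0.0376, limma), to a mean FPKM of 33.1 ± 3.20, against 46.9 ± 7.08 in fasted LMKO livers (SD, n = 2 each). In control livers the re-fed and fasted libraries overlapped (log2 fold change -0.09, SE 0.15, adjusted p = 0.665, limma). The difference between these responses was -0.39 (95% interval -0.88 to 0.10, adjusted p = 0.593, limma).

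Between genotypes, Pdk2 averaged 33.1 ± 3.20 in re-fed LMKO against 48.3 ± 1.47 in re-fed control livers (SD, n = 2 each), a ratio of 0.686. The log2 fold change was -0.53 (SE 0.15), with an unadjusted p of 0.00843 and an adjusted p of 0.315 in limma. It therefore did not pass over all loci, of which 11 did, or 0.101%, and 1269 had an unadjusted p under 0.05. The fasted groups overlapped (log2 fold change -0.14, adjusted p = 0.725, limma). The call for Pdk2 in LMKO livers was lost without fasted LMKO 2 (log2 fold change -0.33, adjusted p = 0.176, limma), without re-fed LMKO 1 (-0.39, 0.181), without re-fed LMKO 2 (-0.58, 0.0773), and without either re-fed control (-0.48, adjusted p = 0.0536 and 0.0534), where only the estimate of the spread changes. The genes most like Pdk2 were Mtss1, an actin-binding scaffold gene (r = 0.976), the uridine kinase gene Uck2 (r = 0.928) and the microtubule gene Ckap5 (r = 0.918). Mtss1 had 30.1 and 32.9 in re-fed LMKO, 39.6 and 39.1 in re-fed control, 33.9 and 39.5 in fasted LMKO, and 37.9 and 41.4 in fasted control livers.

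Pdk1 (chr2:71711329-71741915, mm9), a kinase gene known as a target of HIF1 in low oxygen, ranked next among the kinases. Its FPKM was 14.1 and 9.01 in re-fed LMKO, 14.7 and 15.4 in re-fed control, 16.6 and 10.6 in fasted LMKO, and 19.7 and 10.9 in fasted control livers. The libraries of 3 of the 4 groups were far apart, and the re-fed LMKO libraries were the only pair that lay below another group's, the re-fed controls (log2 fold change -0.38, SE 0.33, adjusted p = 0.671, limma). Re-feeding gave 0.03 in control and -0.21 in LMKO livers on the log2 scale (SE 0.33 each, adjusted p = 0.949 and 0.637, limma). The gene most like it was Abtb2 (r = 0.922), followed by Crlf2 (r = 0.870) and Kctd21 (r = 0.831).

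Pdk3 (chrX:91009955-91077434, mm9), known from testis, kidney and brain, was close to absent. Its FPKM was 0.147 and 0.0314 in re-fed LMKO, 0.118 and 0.0912 in re-fed control, 0.210 and 0.254 in fasted LMKO, and 0.0349 and 0.179 in fasted control livers. The fasted LMKO libraries were the highest, at a level where the number of fragments behind a value is unknown. Phf20 (r = 0.980), Trip10 (r = 0.970) and Zscan29 (r = 0.929) followed it most closely. Here, as for the other kinase genes and Pdp2, these are the highest of 10769 correlations over 8 libraries and carry no test.

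As a pool, kinase transcripts were mainly Pdk2. Pdk2 made up 66.2% and 72.4% of the summed kinase FPKM in re-fed LMKO, 75.7% and 74.0% in re-fed control, 67.0% and 79.5% in fasted LMKO, and 67.5% and 52.8% in fasted control livers. Pdk4 made up 36.4% in the high fasted control library and 1.52% to 9.04% in the other 7. The summed kinase FPKM was 46.6 and 48.8 in re-fed LMKO, 65.2 and 63.8 in re-fed control, 62.5 and 65.2 in fasted LMKO, and 72.3 and 102.7 in fasted control livers. The re-fed LMKO livers thus had the smallest pool, and fasted control livers the largest. Without Pdk4 the sum was 45.1 and 44.4 in re-fed LMKO, 64.2 and 62.7 in re-fed control, 58.6 and 62.7 in fasted LMKO, and 68.5 and 65.3 in fasted control livers, in the same order at both ends.

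Divided by the mean FPKM of the 4 subunit genes, the kinase pool was 0.799 and 0.837 in re-fed LMKO, 1.02 and 1.13 in re-fed control, 1.26 and 1.46 in fasted LMKO, and 1.58 and 2.06 in fasted control livers. The 4 groups did not overlap on this ratio, which does not depend on the scaling of a library. The genes in it differ in transcript length, so the trend with length bears on its feeding contrast, and that part was not tested. With Pdk4 left out of the pool the ratio was 0.774 and 0.761 in re-fed LMKO, 1.01 and 1.11 in re-fed control, 1.18 and 1.4 in fasted LMKO, and 1.5 and 1.31 in fasted control livers, so the fasted genotypes then overlapped and the other pairs of groups did not. The genes were chosen with results of these data known, so the order is a description and carries no test.

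**Figure D3:**
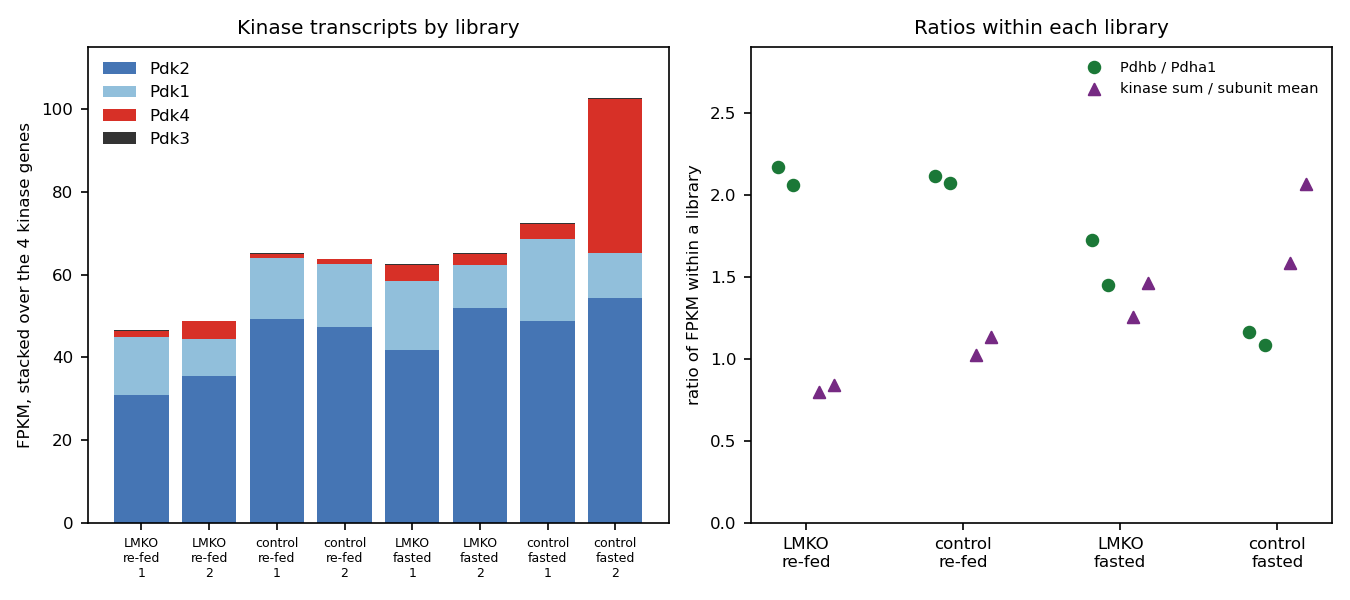
Left, FPKM of the 4 kinase genes stacked by library (x axis); right, the ratio Pdhb/Pdha1 (circles) and the kinase sum over the subunit mean (triangles) in each library by group. Pdk2 is the largest part of every bar, Pdk4 reaches 36.4% of 1 bar, and the kinase ratio runs from 0.799 in a re-fed LMKO library to 2.06 in a fasted control library.

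Pdp2 (chr8:107115368-107120749, mm9) encodes a phosphatase catalytic subunit that re-activates the complex and is prominent in liver. Its FPKM was 4.87 and 7.0 in re-fed LMKO, 11.0 and 7.46 in re-fed control, 9.45 and 10.3 in fasted LMKO, and 9.43 and 12.7 in fasted control livers. The re-fed LMKO libraries were below the other 6, as for Pdk2 and Med23, and the share of all loci with this order was not counted. The log2 fold change with re-feeding in LMKO livers was -0.66 (SE 0.23, adjusted p = 0.0619, limma), and in control livers -0.24 (SE 0.23, adjusted p = 0.455, limma). Of 9 settings other than leaving out a library, 2 gave a call in LMKO livers. They were quantile normalisation (-0.68, adjusted p = 0.0468, limma) and a fit of the 4 LMKO libraries alone (-0.66, adjusted p = 0.0462, limma). The other 7 did not, and over all 9 the values ran from -0.74 to -0.38, with adjusted p up to 0.196 in limma. With 1 library left out the values ran from -0.89 to -0.44. Against re-fed control livers, re-fed LMKO livers had a log2 fold change of -0.56 (SE 0.23), with an unadjusted p of 0.0498 and an adjusted p of 0.427 in limma. Ankfy1 (r = 0.986), Cwc22 (r = 0.979) and Dst (r = 0.977) were most like it. The ratio of Pdp2 to the kinase sum was 0.105 and 0.143 in re-fed LMKO, 0.169 and 0.117 in re-fed control, 0.151 and 0.158 in fasted LMKO, and 0.130 and 0.123 in fasted control livers. The fasted LMKO libraries were above the re-fed LMKO and the fasted control libraries on this ratio, and the other pairs of groups overlapped.

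The other phosphatase genes were taken from a list of 4 further genes of the complex. Pdpr, which encodes the regulatory subunit of the phosphatase, had an FPKM of 2.21 and 2.62 in re-fed LMKO, 5.02 and 2.34 in re-fed control, 11.5 and 11.2 in fasted LMKO, and 11.6 and 11.9 in fasted control livers. It fell with re-feeding in both genotypes, by 1.86 on the log2 scale in LMKO livers (adjusted p = 0.00314, limma) and by 1.51 in control livers (adjusted p = 0.00772, limma). These calls held in all 8 fits that each left out 1 library and in all 9 other settings tried. Pdp1, the catalytic subunit best known from muscle, was at an FPKM of 0.179 to 0.336 and was not tested. Pdhx, the protein that binds Dld to the core, was at 9.32 to 18.6 and did not pass in either genotype (log2 fold change 0.16 in LMKO and 0.42 in control livers, adjusted p = 0.601 and 0.183, limma). It passed in control livers only without fasted control 2 (0.74, adjusted p = 0.0493, limma). Pdha2, the testis form of the E1 alpha chain, was listed at 0 in all 8 libraries.

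Pdhb (chr14:8998505-9005506, mm9), the E1 beta chain, was the most abundant of the 9 genes and rose with re-feeding in both genotypes. Its FPKM was 103.3 and 95.8 in re-fed LMKO, 110.5 and 96.8 in re-fed control, 78.1 and 62.7 in fasted LMKO, and 62.2 and 63.9 in fasted control livers. All 4 re-fed libraries were above all 4 fasted ones. The log2 fold change was 0.50 in LMKO livers (SE 0.14, adjusted p = 0.0326, limma) and 0.71 in control livers (SE 0.14, adjusted p = 0.0135, limma), or ratios of means of 1.41 and 1.64. Pdhb has a short transcript, with a longest coding isoform of 1513 bases, and its calls were lost once the trend with length was removed, at 0.10 in LMKO livers (adjusted p = 0.634, limma) and 0.34 in control livers (adjusted p = 0.134, limma). Quantile normalisation gave 0.08 and 0.29 (adjusted p = 0.696 and 0.163, limma). The call in LMKO livers was also lost without fasted LMKO 2 (0.35, adjusted p = 0.154, limma), re-fed LMKO 1 (0.45, 0.147) or re-fed LMKO 2 (0.56, 0.0934). The call in control livers was lost without fasted control 2 (0.72, adjusted p = 0.0559, limma) or re-fed control 1 (0.61, 0.0547).

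Dlat (chr9:50442738-50467885, mm9), the E2 acetyltransferase, was 10.6 and 14.7 in re-fed LMKO, 11.9 and 12.2 in re-fed control, 10.2 and 7.59 in fasted LMKO, and 7.75 and 6.42 in fasted control livers (FPKM). All 4 re-fed libraries were again above all 4 fasted ones. In control livers it rose, with a log2 fold change of 0.69 (SE 0.20, adjusted p = 0.0360, limma) and a ratio of means of 1.70. In LMKO livers the log2 fold change was 0.46 (SE 0.20, adjusted p = 0.106, limma), and the difference between these responses was -0.24 (95% interval -0.90 to 0.42, adjusted p = 0.795, limma). With a longest coding isoform of 4035 bases, Dlat had 0.68 in control livers once the trend with length was removed (adjusted p = 0.0384, limma). Its call was lost when any 1 of the 4 control libraries was left out, at 0.57 without fasted control 2, 0.81 without fasted control 1, 0.71 without re-fed control 1 and 0.68 without re-fed control 2 (adjusted p of 0.0593 to 0.159, limma).

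Pdha1 (chrX:156560151-156576268, mm9), the E1 alpha chain that the kinases phosphorylate, did not follow its partner chain Pdhb. Its FPKM was 47.6 and 46.6 in re-fed LMKO, 52.4 and 46.8 in re-fed control, 45.3 and 43.2 in fasted LMKO, and 53.4 and 59.1 in fasted control livers. Re-fed libraries were above fasted ones in LMKO livers (log2 fold change 0.09, SE 0.12, adjusted p = 0.571, limma) and below them in control livers (-0.18, SE 0.12, adjusted p = 0.268, limma). With quantile normalisation the gene fell in control livers (-0.51, adjusted p = 0.0178, limma), and the value in LMKO livers was -0.21. Such a split in opposite directions was seen in 2.71% of all tested loci, and the test of the difference gave 0.27 (95% interval -0.12 to 0.66, adjusted p = 0.625, limma). Fasted LMKO livers were below fasted control livers, at a mean of 44.3 ± 1.49 against 56.3 ± 3.97 (SD, n = 2 each), a log2 fold change of -0.34 (SE 0.12) with an unadjusted p of 0.0235 and an adjusted p of 0.322 in limma. The re-fed groups overlapped.

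The ratio of Pdhb to Pdha1 within a library is free of library scaling and was 2.17 and 2.06 in re-fed LMKO, 2.11 and 2.07 in re-fed control, 1.72 and 1.45 in fasted LMKO, and 1.16 and 1.08 in fasted control livers. The re-fed genotypes overlapped, and the fasted LMKO libraries lay between the re-fed and the fasted control libraries with no overlap. The Pdha1 isoform used for length has 2848 bases, longer than that of Pdhb. The trend with length thus bears on the feeding contrast of this ratio. With that trend removed, Pdhb had a log2 fold change with re-feeding of 0.10 in LMKO livers, against 0.50 before. Pdha1 had -0.0097 there, against 0.09 before. In control livers Pdhb had 0.34, against 0.71 before. The ratio itself was not refitted, and the part of length in it was not tested. In fasted livers the correlations with length were 0.268 and 0.309 in LMKO and 0.282 and 0.240 in control libraries, and the part of the trend between fasted genotypes was not tested either.

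Dld (chr12:32016427-32036302, mm9), the E3 dehydrogenase that sister complexes also use, varied least of the 9, with a highest value 1.34-fold over its lowest. Its FPKM was 71.7 and 76.4 in re-fed LMKO, 79.8 and 70.0 in re-fed control, 65.5 and 65.2 in fasted LMKO, and 59.4 and 69.7 in fasted control livers. Re-fed libraries were above fasted ones in both genotypes, by margins that did not pass (log2 fold change 0.18 in LMKO and 0.21 in control livers, SE 0.13 each, adjusted p = 0.311 and 0.243, limma). With quantile normalisation the sign turned, at -0.20 and -0.18.

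Counted over the 8 genes tested, re-feeding in LMKO livers gave 1 gene higher and 1 lower, where 39.5% of all loci passed, 23.2% higher and 16.3% lower. In control livers it gave 2 higher and none lower, where 33.2% passed, 22.8% higher and 10.5% lower, so the share of these genes that changed was near that of all loci or below it. By libraries that did not overlap, 4 genes were higher and 2 lower with re-feeding in LMKO livers, against 41.5% and 33.8% of all loci, and 3 were higher and 2 lower in control livers, against 43.9% and 25%. The median log2 fold change of the 8 was -0.05 in LMKO and -0.03 in control livers, beside 0.06 and 0.13 over all loci. These comparisons share no library with each other.

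Between genotypes none of the 8 passed. In fasted livers 0.166% of all loci passed limma and 1342, or 12.4%, had an unadjusted p under 0.05, and of the 8 only Pdha1 had one. In re-fed livers 0.101% passed and 1269, or 11.7%, had an unadjusted p under 0.05, among them Pdk2 and Pdp2. By libraries that did not overlap, Pdha1 was lower in fasted LMKO livers, as were 12.8% of all loci, and none of the 8 was higher, where 33% of all loci were. In re-fed LMKO livers Pdk1, Pdk2 and Pdp2 were lower, as were 19.4% of all loci, and Pdk4 was higher, as were 25.6%. For the difference in response between genotypes 0.0368% of loci passed and none of the 8 did, at an adjusted or an unadjusted p under 0.05, where 1016 loci, or 9.35%, had an unadjusted one. The re-feeding and genotype contrasts share their libraries in pairs and are not independent of each other.

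**Figure D4:**
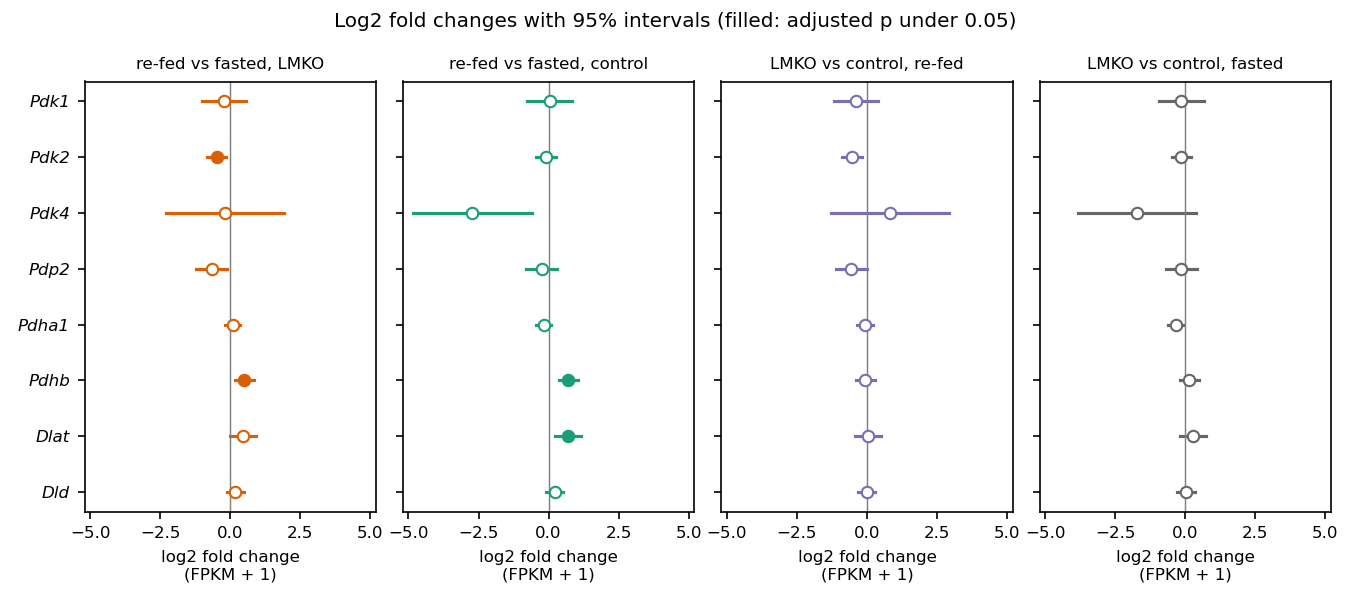
Log2 fold change of FPKM + 1 (x axis) with its 95% interval from limma for the 8 tested genes (y axis) in 4 comparisons, filled where the adjusted p was under 0.05. Pdhb is filled in both re-feeding panels, Dlat in the control and Pdk2 in the LMKO panel, no gene is filled between genotypes, and the Pdk4 intervals are the widest.

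The lipoic acid that Dlat carries is built by a pathway of its own. Of the 9 genes of lipoic acid assembly, 7 rose in LMKO and 6 in control livers and none fell, with median log2 fold changes of 0.50 and 0.56, where 23.2% and 22.8% of all loci rose. Bola3, which helps supply iron-sulfur clusters to lipoic acid synthase, had an FPKM of 114 and 120 in re-fed LMKO, 107 and 110 in re-fed control, 45.3 and 41.6 in fasted LMKO, and 49.9 and 52.2 in fasted control livers. Its log2 fold change was 1.41 in LMKO and 1.08 in control livers (adjusted p = 0.000997 and 0.00196, limma). Lipt1, which transfers lipoate to the E2 proteins, had 0.74 and 0.73 (adjusted p = 0.00367 and 0.00548, limma), and the iron-sulfur scaffold gene Nfu1 had 0.77 and 0.81 (adjusted p = 0.00722 and 0.00818, limma). With the trend with length removed, 4 genes rose in LMKO livers, and 4 rose and 1 fell in control livers. With quantile normalisation 4 rose and 1 fell in each genotype. In LMKO livers the count of 7 was 4 without fasted LMKO 1, re-fed LMKO 1 or re-fed LMKO 2.

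Genes that use acetyl-CoA for citrate and fatty acids rose in 4 of 7 cases in each genotype with none lower, beside 23.2% of all loci in LMKO and 22.8% in control livers. Their median log2 fold changes were 0.81 in LMKO and 1.03 in control livers. Acly, which cuts citrate to acetyl-CoA in the cytosol, had an FPKM of 72.6 and 77.6 in re-fed LMKO, 145 and 108 in re-fed control, 23.2 and 18.2 in fasted LMKO, and 31.3 and 15 in fasted control livers. Its log2 fold change was 1.82 in LMKO and 2.46 in control livers (adjusted p = 0.00708 and 0.00407, limma). Fasn, fatty acid synthase, had 2.65 and 2.68 (adjusted p = 0.00369 and 0.00501, limma). The LMKO count was 2 without re-fed LMKO 2.

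Among 12 genes of pyruvate supply and its other uses, 1 rose and 3 fell in LMKO livers, and 2 rose and 3 fell in control livers. These counts, 4 and 5 of 12, are near the 39.5% and 33.2% of all loci that passed. Pcx, which carboxylates pyruvate for glucose synthesis and so competes with the complex, fell by 0.84 in LMKO and by 1.23 in control livers on the log2 scale (adjusted p = 0.00965 and 0.00423, limma). Its FPKM was 96.1 and 87.0 in re-fed LMKO, 114 and 87.9 in re-fed control, 149 and 182 in fasted LMKO, and 235 and 237 in fasted control livers. Gpt, which interconverts alanine and pyruvate, rose by 1.08 and 0.87 (adjusted p = 0.00368 and 0.00932, limma). The lactate dehydrogenase gene Ldha fell by 0.75 and 0.56 (adjusted p = 0.0142 and 0.0431, limma), and Slc16a7, a monocarboxylate carrier gene, fell by 1.33 and 0.83 (adjusted p = 0.00780 and 0.0418, limma). The count of 3 lower genes in control livers was 1 without any single control library, and that in LMKO livers was 1 without re-fed LMKO 2. The count of higher genes in LMKO livers was 3 without fasted LMKO 1, and that in control livers was 1 without fasted control 1, re-fed control 2 or any LMKO library.

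The 11 genes of the sister complexes, which handle other 2-oxo acids and glycine with the same Dld, gave 1 higher and 2 lower in LMKO livers and 1 higher and 1 lower in control livers, a smaller share than the 39.5% and 33.2% of all loci that passed. With quantile normalisation 1 was higher and 4 were lower in each genotype. Gcsh, the lipoate-carrying protein of glycine cleavage, rose by 0.96 and 1.07 (adjusted p = 0.00721 and 0.00693, limma). Dhtkd1, the E1 enzyme of lysine breakdown, fell by 2.19 in LMKO and by 1.34 in control livers (adjusted p = 0.00301 and 0.0172, limma). Its call in control livers was lost without re-fed control 2 (-1.21, adjusted p = 0.0850, limma), while the control count of lower genes was 2 without fasted control 1, re-fed LMKO 1 or re-fed LMKO 2. Ppm1k, the phosphatase that activates branched-chain oxo acid dehydrogenase as Pdp2 does for pyruvate dehydrogenase, fell by 1.54 in LMKO livers (adjusted p = 0.00560, limma). In control livers its log2 fold change was -0.60 (adjusted p = 0.118, limma), and the difference between the responses did not pass (-0.94, adjusted p = 0.512, limma).

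Of the 16 PPAR alpha targets, 10 fell in LMKO and 14 in control livers and none rose, with medians of -1.67 and -2.03, where 16.3% and 10.5% of all loci fell. Over the settings other than leaving out a library, 7 to 13 fell in LMKO and 9 to 16 in control livers. Vnn1, which encodes the pantetheinase of coenzyme A turnover, had an FPKM of 4.99 and 6.06 in re-fed LMKO, 5.97 and 4.81 in re-fed control, 59.7 and 55.9 in fasted LMKO, and 44.3 and 90.8 in fasted control livers. Its log2 fold change was -3.18 in LMKO and -3.34 in control livers (adjusted p = 0.00153 and 0.00172, limma). In both fasted groups Vnn1 was thus high in each animal, where Pdk4 was high in 1 fasted control animal only. Without fasted control 2 the count of lower targets in control livers was 12, and it was 9 without re-fed control 2 or with no filter on low values.

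Of 15 regulators of the kinase genes, 11 fell in LMKO and 7 in control livers and none rose, where 16.3% and 10.5% of all loci fell. Ppargc1a, the coactivator that drives fasting genes, had an FPKM of 1.26 and 1.5 in re-fed LMKO, 1.79 and 1.84 in re-fed control, 3.14 and 3.40 in fasted LMKO, and 6.66 and 6.64 in fasted control livers. It fell by 0.84 in LMKO and by 1.44 in control livers on the log2 scale (adjusted p = 0.00248 and 0.00105, limma). Between fasted genotypes its log2 fold change was -0.84 (adjusted p = 0.0541, limma). Of 9 settings other than leaving out a library it passed in 2, median-ratio scaling (-0.93, adjusted p = 0.0375, limma) and quantile normalisation (-0.93, 0.0370). In the other 7 it did not pass, with adjusted p up to 0.238 in limma. With 1 library left out its values ran from -0.89 to -0.80. Lpin1, a PPAR alpha coactivator and phosphatidate phosphatase, fell by 2.96 and 4.19 (adjusted p = 0.00653 and 0.00333, limma). The control count was 4 without fasted control 2 or re-fed control 2, and the LMKO count was 5 to 7 without any single LMKO library. With the trend with length removed 7 fell in LMKO livers, and with no filter on low values 6 fell in LMKO and 4 in control livers.

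Insulin-repressed FOXO1 targets fell in 3 of 7 cases in LMKO and in 5 of 7 in control livers, and none rose, where 16.3% and 10.5% of all loci fell. Irs2, the insulin receptor substrate, fell by 2.03 and 2.18 (adjusted p = 0.000842 and 0.000823, limma), and Pck1, the gluconeogenic carboxykinase, by 1.96 and 2.54 (adjusted p = 0.000734 and 0.000328, limma). Pck1 was the only gene of all these lists that passed between genotypes. Its FPKM was 824 and 855 in fasted LMKO, against 2244 and 2128 in fasted control livers, a log2 fold change of -1.38 (adjusted p = 0.0133, limma). That call was lost without any single LMKO library (-1.35 to -1.41, adjusted p of 0.0515 to 0.105, limma). The control count of FOXO1 targets was 3 without fasted control 1, fasted control 2, re-fed control 1 or either fasted LMKO library. Beside these feeding contrasts, cholangiocyte markers summed to an FPKM of 24.2 to 30.2 in re-fed and 8.14 to 12 in fasted libraries, and Spp1 alone made up 21.4 to 25.7 and 5.24 to 10.3 of these sums. Sinusoidal endothelial markers summed to 52.7 to 74.4 in re-fed and 91.5 to 130.1 in fasted libraries, and stellate cell markers to 45.7 to 80.2 in re-fed and 92.5 to 105.5 in fasted ones. Dcn alone made up 32.4 to 54.4 and 66.9 to 75.9 of these stellate sums. The stellate markers did not move as a set: Dcn, Reln and Rgs5 were higher in the fasted libraries, Col3a1 was lower, and Lrat, Des, Col1a1 and Pdgfrb overlapped. Of the cholangiocyte markers only Spp1 separated the feeding states, and Krt19, Krt7, Sox9, Epcam and Cftr overlapped. Of the endothelial markers Clec4g overlapped, at 23.8 to 33.3 in re-fed and 15.9 to 34.1 in fasted libraries. The other endothelial markers were higher in the fasted libraries. The part of these cells in the results was not tested.

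**Figure D5:**
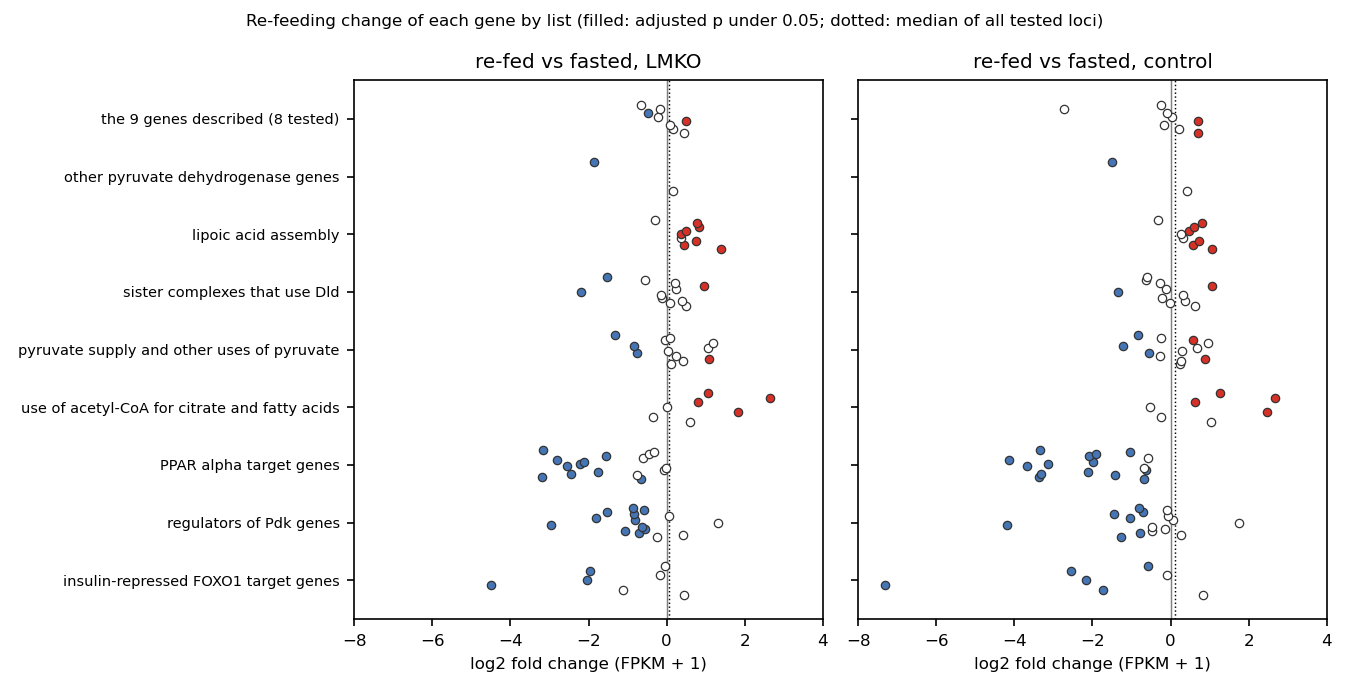
Log2 fold change of FPKM + 1 with re-feeding (x axis) for each tested gene of 9 sets (y axis), in LMKO (left) and control livers (right), red where the gene rose, blue where it fell and open where it did not pass, with a dotted line at the median of all loci. Of the 8 kinase, Pdp2 and subunit genes tested, Pdhb is red in both panels and Dlat in the control panel, and Pdk2 is blue in the LMKO panel. In the lipoic acid set 7 genes are red in the LMKO and 6 in the control panel, and among PPAR alpha targets 10 and 14 are blue.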

How the data were processed

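Each of the 8 libraries was deposited as a list of 23699 loci with a symbol, a position on mm9 and an FPKM value computed by the authors. Per the submitters' processing notes, TopHat 1.4.1, SAMtools 1.4.1, Cufflinks 2.0.2 and Cuffdiff 2.0.2 were used on mm9. No source used here gives any scaling beyond FPKM, and the deposited FPKM were used unscaled. Depth is unknown, so no count model or counting interval was used.

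The 10865 loci that reached an FPKM of 1 in 2 or more libraries were tested on log2(FPKM + 1) with limma 3.58.1 (R 4.3.3), in 1 model of 4 group means with 4 residual degrees of freedom, eBayes with a trend, two-sided, Benjamini-Hochberg over all loci, threshold 0.05. The 5 comparisons were re-fed against fasted within each genotype, LMKO against control within each feeding state, and LMKO minus control for the re-feeding response. The code of the fit was checked on simulated data with the same spread at every locus. That does not test how the fit handles the unequal spread of the real loci.

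Named were the 9 genes and Med23, the 3 loci of highest Pearson correlation with each kinase and Pdp2, and up to 2 genes per list and comparison with the smallest p and a group mean of at least 1 FPKM. Other genes named beside these were chosen after their values were seen, from the same lists or as markers. The 9 genes and all lists were chosen with earlier results of these data known. List symbols Mpc1, Mpc2, Pkm and Adgre1 were matched to the older symbols in the files. Lengths are those of the longest coding isoform in GENCODE, for 98.9% of tested loci. Promoters are from RefSeq on GRCm38.p6, and mm9 coordinates were not converted. Alternatives covered pseudocount, filter, scaling, libraries in the fit, replicate block, variance trend, length trend and leaving out each library. The counts per list under these alternatives were added after the data had been seen.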

Additional observations from a re-analysis of the deposited data

How the results depend on the processing

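With 2 libraries per group, single animals decide several calls, and the calls for Pdhb, Dlat and Pdk2 near the threshold are not stable. Of 320 values of the 8 genes with 1 library left out, 282 kept direction and side of the threshold, 14 lost and 1 gained a call and 23 turned sign; of 347 under the other alternatives the counts were 321, 10, 4 and 12. The cause of these changes was not tested. The loci called for re-feeding in LMKO and control livers numbered 4296 and 3610, and 2193 to 4251 and 1539 to 3151 with 1 library left out. For LMKO against control they were 11 re-fed (5 to 14) and 18 fasted (12 to 57), and 4 (3 to 16) for the difference in response. Of the genes described, 0 to 1 rose and 0 to 1 fell in LMKO livers, and 0 to 2 rose and 0 to 1 fell in control livers.

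With no filter, 2092 loci were called for re-feeding in control livers, 56 and 35 between re-fed and fasted genotypes and 68 for the difference in response; 1 gene described rose in control livers, and 0 rose and 0 fell in LMKO livers. Fitting only the 4 libraries compared gave 1968 loci for re-feeding in control and 8 between fasted genotypes, and 0 genes described rose in LMKO livers, where Pdk2 and Pdhb lost their calls (adjusted p = 0.0689 and 0.0565, limma) and Pdp2 gained one (0.0462). With a pseudocount of 0.1, 1 gene fell in control livers, Pdk4 (-3.38, adjusted p = 0.0416, limma). Quantile normalisation gave 1 rising (Dlat) and 1 falling (Pdha1) in control livers and 0 rising and 2 falling (Pdk2, Pdp2) in LMKO livers. With the trend with length removed, 1 rose in control and 0 in LMKO livers, and the difference in response had 2 loci.

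Signs turned for re-feeding in control livers with median-ratio scaling (Pdk1 -0.10) and quantile normalisation (Pdk1 -0.15, Dld -0.18). In LMKO livers they turned with quantile normalisation (Pdha1 -0.21, Dld -0.20) and with the length trend removed (Pdk1 0.019, Pdha1 -0.0097, Pdhx -0.0055). Dld between fasted genotypes was -0.081, -0.060 and -0.037 with median-ratio, quantile and length adjustment, and with median-ratio scaling it was 0.0038 between re-fed genotypes and 0.085 for the difference in response. With 1 library left out, log2 fold changes for re-feeding ran from -0.51 to 0.090 (Pdk1) and -0.74 to 0.39 (Pdk4) in LMKO livers, and from -0.37 to 0.43 (Pdk1) and -0.50 to 0.013 (Pdp2) in control livers. Between re-fed genotypes they ran from -0.15 to 0.0096 (Pdha1), -0.15 to 0.039 (Pdhb), -0.17 to 0.27 (Dlat), -0.11 to 0.078 (Dld), -0.82 to 0.032 (Pdpr) and -0.25 to 0.11 (Pdhx). Between fasted genotypes they ran from -0.54 to 0.26 (Pdk1), -0.29 to 0.011 (Pdk2), -0.33 to 0.057 (Pdp2), -0.0079 to 0.31 (Pdhb), -0.093 to 0.13 (Dld) and -0.12 to 0.52 (Pdhx). For the difference in response they ran from -0.65 to 0.15 (Pdk1), -0.15 to 0.077 (Dld), -0.77 to 0.079 (Pdpr) and -0.59 to 0.052 (Pdhx).

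Same-numbered libraries correlated over loci at -0.0835 to -0.00835 in their deviations from the group means. Such a value can show only a pairing shared by many loci, so whether the replicate numbers pair the mice is not known. With the replicate number as a block, 2967 loci were called for re-feeding in control livers and 1 gene described rose there, Pdhb, while Dlat had an adjusted p of 0.0595 in limma.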
